A study of Mus musculus with 7 samples.

Results

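Eicosanoids are lipid mediators made from arachidonic acid, and 10 genes for their synthesis, breakdown and receptors were followed in regulatory T (Treg) cells: Ptgs1, Ptgs2, Alox5, Alox5ap, Hpgd, Cyp4f18, Ptger2, Ptger4, Ptgir and Ltb4r1. They were taken by gene symbol from 21902 genes on the array, and each of the 10 had 1 probe set. The genes were chosen with results of the same comparison of these arrays known, so their differences are given as a description, without p-values. CD4+ YFP+ cells, labelled as Treg cells, were sorted from spleen and pLN (the labels' abbreviation) of mouse chimeras. The 3 KO samples came from Foxp3CrePggt1bfl/fl chimeras and the 4 Het samples from Foxp3CrePggt1bfl/wt chimeras. Both groups thus carried the Cre named for Foxp3 and at least 1 floxed Pggt1b allele. Age, strain, the donor and host of the chimeras and any pooling of animals are not stated by the labels. Pggt1b is the gene for a subunit of the enzyme behind protein geranylgeranylation, the addition of an isoprenoid lipid.

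Arachidonic acid is released from membranes by phospholipases. Cyclooxygenases turn it into prostanoids such as prostaglandin E2, prostacyclin and thromboxane, and lipoxygenases turn it into leukotrienes. Prostaglandin E2 raises cyclic AMP in T cells through the receptors EP2 and EP4, and leukotriene B4 attracts leukocytes through its receptor BLT1.

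Of the 10 genes, Cyp4f18 and Ptger2 were the lowest in KO cells relative to Het cells, at log2 differences of -1.82 ± 0.14 and -1.66 ± 0.17 (SE). Hpgd was the highest, at 2.55 ± 0.44. Cyp4f18 encodes a cytochrome P450 that hydroxylates leukotriene B4 in the mouse, Ptger2 the prostaglandin E2 receptor EP2, and Hpgd the dehydrogenase that inactivates prostaglandin E2. KO and Het values did not overlap in these genes, nor in Ptgs1, Alox5ap, Ptger4 and Ptgir. The same was so for 19.5% of the 13083 genes fitted below, and nothing is read from it. Ptgs1 was above the detection floor, given below, on KO array 1 only. Promoter sequences of Cyp4f18, Ptger2, Hpgd and Ptgs1 are shown so that they can be set side by side. They are from RefSeq (GRCm38.p6), from 250 bases before to 50 bases after the annotated start, written 5′ to 3′ on the strand of the gene. Capitals mark a PU.1 motif (GAGGAAGT) in Ptgs1 and a TATA box (TATAAA) in Hpgd.
Cyp4f18 promoter, chr8:72009577-72009876, minus strand: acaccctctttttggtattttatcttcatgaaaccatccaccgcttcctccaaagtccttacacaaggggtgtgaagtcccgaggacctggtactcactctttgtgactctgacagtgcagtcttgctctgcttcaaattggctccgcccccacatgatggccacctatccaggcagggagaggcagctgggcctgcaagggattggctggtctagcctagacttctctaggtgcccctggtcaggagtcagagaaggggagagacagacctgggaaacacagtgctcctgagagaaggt
Ptger2 promoter, chr14:44987861-44988160, plus strand: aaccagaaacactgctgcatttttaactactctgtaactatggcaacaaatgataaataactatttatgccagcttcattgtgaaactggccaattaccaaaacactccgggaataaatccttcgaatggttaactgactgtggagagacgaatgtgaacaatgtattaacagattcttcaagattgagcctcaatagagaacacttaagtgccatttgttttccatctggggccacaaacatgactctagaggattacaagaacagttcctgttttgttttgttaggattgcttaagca
Hpgd promoter, chr8:56294302-56294601, plus strand: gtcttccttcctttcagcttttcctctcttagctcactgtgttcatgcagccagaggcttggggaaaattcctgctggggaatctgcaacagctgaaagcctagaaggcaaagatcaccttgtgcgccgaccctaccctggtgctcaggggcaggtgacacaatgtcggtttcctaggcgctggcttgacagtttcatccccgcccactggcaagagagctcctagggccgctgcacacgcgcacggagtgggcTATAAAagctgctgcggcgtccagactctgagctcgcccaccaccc
Ptgs1 promoter, chr2:36230176-36230475, plus strand: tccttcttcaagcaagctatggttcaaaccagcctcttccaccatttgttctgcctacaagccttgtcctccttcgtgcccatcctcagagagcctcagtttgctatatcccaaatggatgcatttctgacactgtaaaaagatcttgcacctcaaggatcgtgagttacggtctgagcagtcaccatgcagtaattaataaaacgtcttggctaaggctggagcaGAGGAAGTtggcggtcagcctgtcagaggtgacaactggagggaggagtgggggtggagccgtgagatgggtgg

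Promoters were found for 9 of the 10 genes, and none is shown for Alox5ap. The Ptger2 promoter had 37.7% G and C and 3 CG dinucleotides, against medians of 52.7% and 7 over 32851 promoters of the same length. Cyp4f18 also had 3 CG dinucleotides, at 54.0% G and C, while Hpgd had 12 and Ptgs1 had 6. Both strands were searched for AP-1 (TGACTCA), CRE (TGACGTCA), forkhead (TGTTTAC), PU.1 (GAGGAAGT), Runx (TGTGGT), E box (CACGTG) and NF-kB (GGGACTTTC) letters. PU.1 letters were found in the promoters of Ptgs1, at position -24, and of Ltb4r1, and in 3.20% of all promoters. Runx letters were in Ptgs2 and Ltb4r1 (16.8% of all promoters) and the E box in Ptgs2 (7.15%). AP-1, CRE, forkhead and NF-kB letters were in none of the 9 windows, and in 5.20%, 1.79%, 3.65% and 0.353% of all promoters. The TATA box, searched after the sequences had been seen, was in Hpgd, at position 5, and in 13.6% of all promoters. Positions count from the annotated start as 1. None of the motifs overlapped within a printed sequence. A match is a match of letters, not a measured site.

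Values are log2 signals, and each array is 1 sample, so precision is limited by how many arrays there are. The floor, the 95th percentile of 1117 olfactory receptor probe sets on each array, lay between 5.48 and 5.77. Genes above it on at least 3 arrays entered a limma fit, 13083 in all. Its calls at a Benjamini-Hochberg adjusted p under 0.05 numbered 333 genes higher and 424 lower in KO, and 406 higher and 291 lower once array medians had been made equal. The signal of Pggt1b spanned 6.59 to 6.62 over KO and 6.71 to 7.11 over Het arrays, a log2 difference of -0.37 ± 0.13 (SE; limma adjusted p = 0.126). Whether its probes lie inside the floxed segment is not known here, so this value does not check the deletion. Arrays correlated at 0.971 to 0.987 within a genotype and at 0.942 to 0.964 between genotypes, over the genes in the fit. Treg and T cell identity genes were in the fit in all 13 measured cases. Among them Il2ra was above the floor on only 1 of 3 KO and 2 of 4 Het arrays. The summed linear signal of the 13 was lower in KO (21088 to 23046) than in Het samples (24270 to 25929). Of the 13, 5 (Ikzf2, Ctla4, Cd3d, Cd3g and Lck) had all KO arrays below all Het arrays, as did 9.82% of all genes in the fit. Foxp3 was at 11.24 ± 0.11 in KO and 11.18 ± 0.11 in Het samples (SD, n = 3 and 4). In the fit, Ikzf2 (-1.22 ± 0.16, SE) and Ctla4 (-0.80 ± 0.17) fell, and 1 of them did when replicate 2 or 3 of either group was left out.

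Markers of other cell types differed between the groups too. All marker lists were chosen with earlier results of these data known, so their values are given as a description. Of 25 macrophage and monocyte markers, 22 were in the fit, and 16 rose and 0 fell. The median log2 difference of the 22 was 1.73 against -0.02 over all genes in the fit. Of all genes in the fit, 2.55% rose and 3.24% fell. Of the 16, 4 (Mrc1, C1qc, Mertk and Cd14) were below the floor on all Het arrays and entered the fit through KO alone. The other 12 were above the floor on at least 1 Het array. Of these, Mpeg1 and Fcer1g were so on 1 of 4 Het arrays, Csf1r, Slc40a1 and Itgam on 2, and Spi1 on 3. With only the 4 set to their bounds the median was 1.63. The list's summed linear signal ranged from 4848 to 11034 in KO and from 2576 to 3437 in Het samples. Ctsb, its brightest gene (mean 10.82 in KO and 10.41 in Het), weighed most in this sum and did not pass (0.41 ± 0.17, SE). Csf1r, a growth factor receptor of macrophages, was higher by 3.04 ± 0.42 (SE), a size that rests in part on Het values below the floor. Mrc1, the mannose receptor, was higher at least 3.904-fold. The markers Vsig4 and Clec4f were below the floor on all arrays. Without KO replicate 1, 10 of the macrophage markers passed, or 13 with the genes of the 7-array fit kept. Markers of conventional and plasmacytoid dendritic cells were read as 1 list of 14, of which 11 were in the fit. Of the 11, 5 did not pass and 6 rose, 1 of them (Itgax) with all Het arrays below the floor. They were led by Pld4 (2.77 ± 0.23) and Siglech (2.18 ± 0.18), with Flt3, Xcr1 and Clec9a below the floor. Without KO replicate 2 or KO replicate 3, 3 of them passed, or 3 and 4 with the same genes kept. Their summed signal was 3006 to 4181 in KO and 1831 to 2183 in Het samples. Neutrophil markers (9 of 12 below the floor on all arrays, S100a8, S100a9 and Ly6g among them) and mast cell, basophil and eosinophil markers (10 of 14) gave 0 calls, with 3 and 2 in the fit. The largest differences there were those of Csf3r (0.48 ± 0.24) and Camp (0.13 ± 0.22), and of Tpsb2 (0.10 ± 0.14) and Prss34 (-0.01 ± 0.12). B cell markers, led by Ebf1 (-0.44 ± 0.23) and Cd22 (-0.26 ± 0.19), gave 0 calls of 6 in the fit. Platelet markers, led by Itgb3 (0.50 ± 0.14) and Gp1ba (-0.19 ± 0.15), gave 0 of 7, but 1 rose once array medians had been made equal, after quantile normalization, under a stricter filter, and with a trended, robust variance. CD8 T and NK cell genes rose in 2 (Eomes 0.85 ± 0.13, Cd8b1 0.65 ± 0.13) and fell in 1 (Nkg7, -1.10 ± 0.12) of 5, with 1 rising without KO replicate 2 or KO replicate 3. All these are limma calls, and the part of any such cells in the results below was not tested.

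Of the 10 eicosanoid genes, 6 were in the fit, and 4 of these passed its threshold, Hpgd higher and Cyp4f18, Ptger2 and Ptger4 lower in KO cells. Over all genes in the fit the share past the threshold was 5.79%, with 2.55% higher and 3.24% lower. In all 6 the KO and Het values did not overlap, as was so for 19.5% of the genes in the fit, 9.68% with all KO arrays above and 9.82% with all below. Nothing is read from these counts, since the genes were chosen on this contrast. Among the 13083 genes, Hpgd ranked 13 from the top of the differences, and Cyp4f18 and Ptger2 ranked 13 and 23 from the bottom. Ptger4 ranked 851 from the bottom, and Ptgir and Alox5ap ranked 752 and 1194 from the top. The other 4 genes, Ptgs1, Ptgs2, Alox5 and Ltb4r1, were not in the fit, and Ptgs2 and Ltb4r1 lay below the floor on all 7 arrays.

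**Figure D1:**
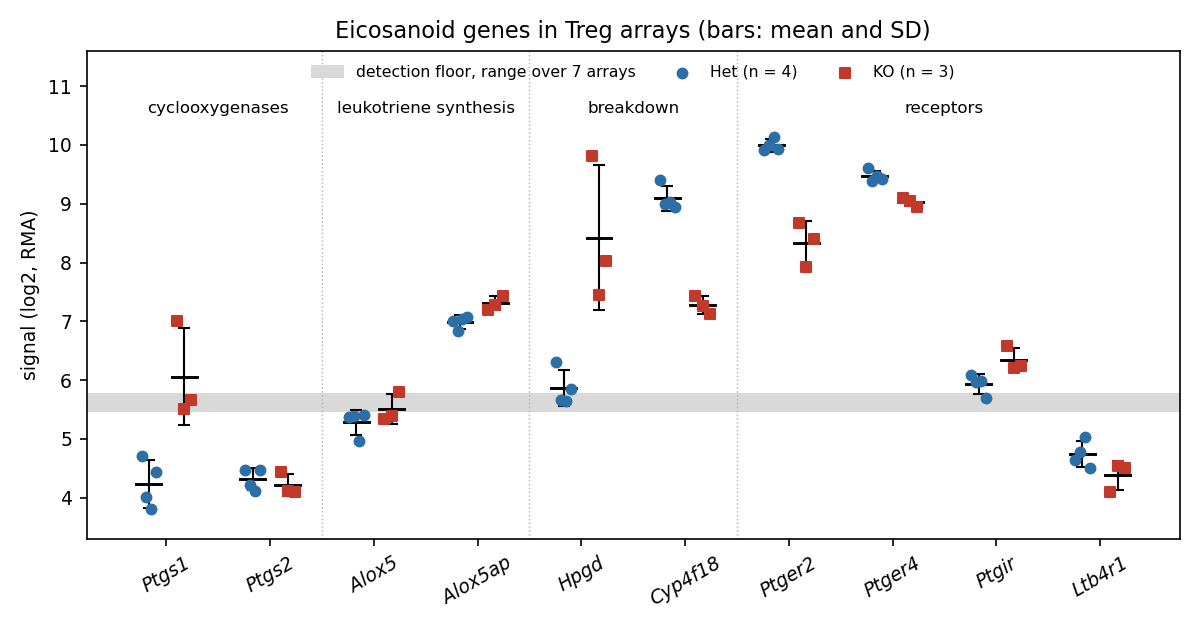
Signal (log2) of the 10 genes on each array, Het as circles (n = 4) and KO as squares (n = 3), with mean and SD as bars and the range of the floor in grey. Cyp4f18 and Ptger2 sit lower and Hpgd and Ptgs1 higher in KO arrays with no overlap, while Ptgs2 and Ltb4r1 lie under the floor. Ptgs1 is above the floor on KO array 1 only.

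**Figure D2:**
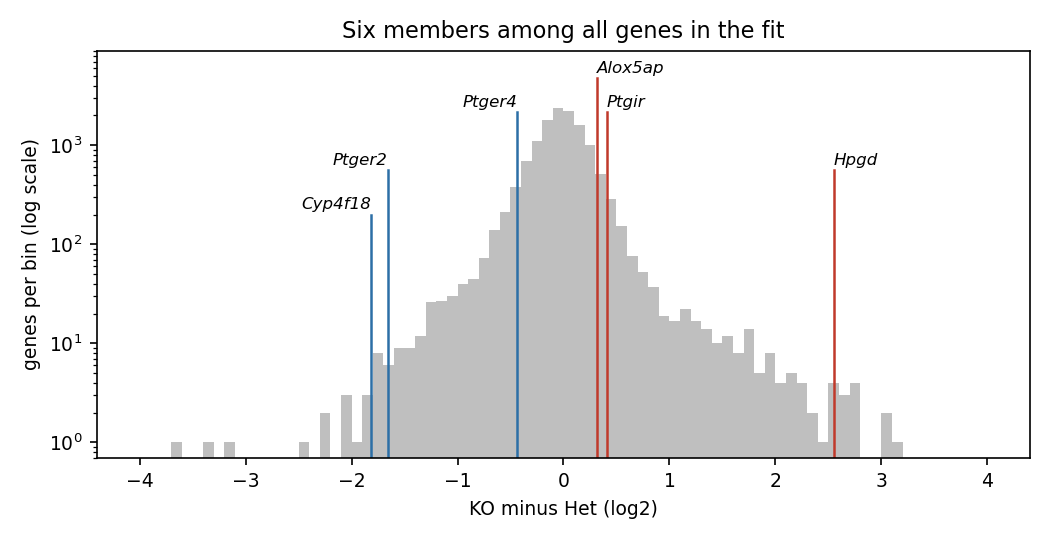
Number of genes (log scale) by KO minus Het difference (log2) for all 13083 genes in the fit, with vertical lines at 6 eicosanoid genes. Hpgd lies in the right tail at 2.55, Cyp4f18 and Ptger2 in the left tail at -1.82 and -1.66, and Ptger4, Alox5ap and Ptgir on its flanks at -0.44, 0.32 and 0.41.

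Other genes of the pathway were read from a list of 71, also chosen with earlier results of these data known. Of the 71, 70 were on the array and 38 in the fit. Of the 38, 2 rose and 0 fell (5.26%, against 5.79% of all genes in the fit), at a median log2 difference of 0.08 against -0.02 over all genes. The 2 were Tbxas1, the thromboxane synthase, and Pla2g2d, a secreted phospholipase A2. Tbxas1, and 2 genes that did not pass (Cyp4f16 and Ggt5), entered the fit with all Het arrays below the floor. A further 27 of the 70 lay below the floor on all 7 arrays. The remaining 36 genes in the fit did not pass.

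Among the phospholipases, Pla2g2d read 6.91, 6.58 and 7.67 on KO arrays 1 to 3, and 6.32, 5.82, 5.87 and 6.04 on Het arrays 1 to 4. All KO values lay above all Het values, and KO sample 3 was the highest. The difference was 1.04 ± 0.23 (SE), or 2.06-fold, with a limma adjusted p of 0.0257. It no longer passed when KO replicate 1 (1.11) or 3 (0.73), or Het replicate 2 (0.98) or 3 (0.99), was left out (limma adjusted p = 0.0617, 0.0578, 0.0675 and 0.0714). Plaa, which activates phospholipase A2 (0.19 ± 0.11), the calcium-independent phospholipase Pla2g6 (-0.25 ± 0.15) and the cytosolic Pla2g4f (0.29 ± 0.21) did not pass.

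Cyclooxygenases start prostanoid synthesis. Ptgs1, the constitutive form, read 7.01, 5.51 and 5.66 on KO arrays 1 to 3, and 4.71, 4.01, 3.81 and 4.44 on Het arrays 1 to 4. The groups did not overlap, but only KO sample 1 was above the floor, so the gene did not enter the fit. Its KO mean was 6.06 ± 0.83 (SD, n = 3), with KO samples 2 and 3 read below the floor. No lower bound is given for the fold, since no array other than that of KO sample 1 was above the floor. Ptgs2, the inducible form, was at 4.43, 4.12 and 4.09 on KO arrays 1 to 3, and 4.48, 4.23, 4.11 and 4.47 on Het arrays 1 to 4, overlapping and below the floor throughout.

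Of the synthases that follow, Tbxas1 read 7.67, 6.64 and 6.98 on KO arrays 1 to 3, and 4.87, 4.40, 4.87 and 5.07 on Het arrays 1 to 4. All KO arrays were above the floor and all Het arrays below it, so the level was at least 2.73-fold higher in KO (limma adjusted p = 0.00046). It entered the fit through its KO arrays alone and had to differ there, so this p is no independent support. Macrophages and platelets are known to express this enzyme and Ptgs1. The summed macrophage and monocyte marker signal, in which Ctsb weighed most, was 4848 to 11034 in KO and 2576 to 3437 in Het samples. The summed platelet marker signal was 1241 to 1476 in KO and 1189 to 1352 in Het samples. The part of either cell type in the Tbxas1 and Ptgs1 values was not tested. Without KO replicate 1, KO replicate 2 or KO replicate 3 Tbxas1 was above the floor on only 2 arrays and left the fit. Fam213b, a prostamide and prostaglandin F synthase (0.53 ± 0.25), Akr1b3, an aldose reductase (-0.26 ± 0.13), and the carbonyl reductase Cbr1 (-0.01 ± 0.12) did not pass.

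Leukotriene synthesis begins with Alox5, an arachidonate lipoxygenase, and its activating protein Alox5ap. Alox5 read 5.34, 5.39 and 5.79 on KO arrays 1 to 3, and 5.38, 5.38, 4.96 and 5.41 on Het arrays 1 to 4. The groups overlapped, and KO sample 3 alone was above the floor. Alox5ap was above the floor on all arrays, at 7.20, 7.28 and 7.44 on KO arrays 1 to 3, and 7.01, 6.83, 7.04 and 7.08 on Het arrays 1 to 4. Its KO values all lay above the Het values by a small margin, and the difference of 0.32 ± 0.12 (SE) did not pass the threshold of the fit. Downstream, Lta4h, which makes leukotriene B4, differed by 0.16 ± 0.13, and Mgst2, a glutathione transferase that can make leukotriene C4, by -0.29 ± 0.12. Neither passed (limma adjusted p = 0.551 and 0.203), nor did Alox8 (-0.24 ± 0.13). The 7 genes of this group in the fit gave 0 calls.

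Hpgd (probe set TC0800000621.mm.2) read 9.80, 7.44 and 8.02 on KO arrays 1 to 3, and 6.31, 5.67, 5.65 and 5.85 on Het arrays 1 to 4. Every KO value lay above every Het value, and the Het values were close to the floor. The KO samples spread widely, at 8.42 ± 1.23, against 5.87 ± 0.31 in the Het samples (SD, n = 3 and 4). The difference of 2.55 corresponds to 5.87-fold, and without KO replicate 1, its highest sample, it was 1.86. In bulk RNA of sorted cells, a change in the number of cells of a type and a change in RNA per cell cannot be told apart.

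The order of the KO samples was the same for Hpgd, Ptgs1 and Tbxas1, with KO sample 1 highest and KO sample 2 lowest. The same order was seen in 16 of 25 macrophage and monocyte markers, in 4 of the 10 eicosanoid genes (Ptger2 and Ptgir being the other two), and in 12.1% of all genes in the fit. Among the 333 genes called higher in KO, 94 (28.2%) had it. Pla2g2d had another order, with KO sample 3 highest and KO sample 2 lowest. The summed dendritic cell marker signal had that order too, at 3776, 3006 and 4181 in KO samples 1 to 3. Of the 14 dendritic cell markers, 3 had the order of Hpgd. The mean of the macrophage markers stood 2.02, 0.99 and 1.21 above the Het mean (log2) in KO samples 1 to 3. For Hpgd the same distances, each sample minus the Het mean, were 3.93, 1.57 and 2.15. The part of macrophage or dendritic cell RNA in the Hpgd, Ptgs1, Tbxas1 and Pla2g2d values was not tested.

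**Figure D3:**
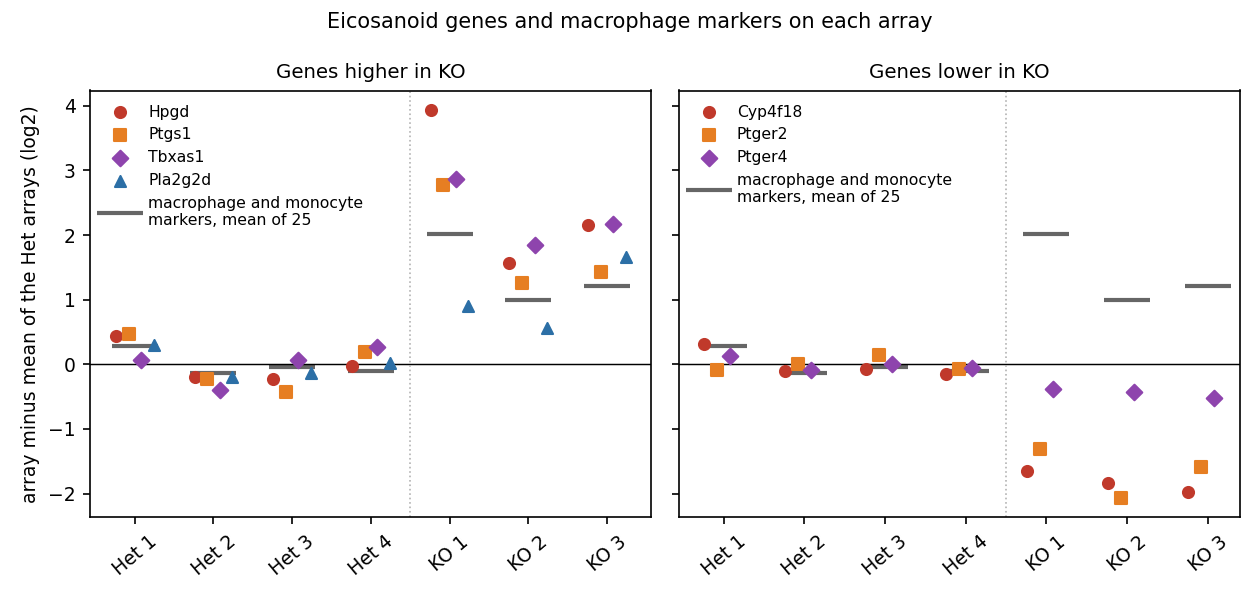
Each array minus the mean of the 4 Het arrays (log2) for genes higher in KO (left) and lower in KO (right), with the mean of 25 macrophage and monocyte markers as a grey bar. KO 1 is the highest KO array for Hpgd, Ptgs1, Tbxas1 and the markers, and Cyp4f18, Ptger2 and Ptger4 are below 0 on all 3 KO arrays.

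Cyp4f18 (probe set TC0800002447.mm.2) read 7.43, 7.26 and 7.12 on KO arrays 1 to 3, and 9.40, 8.99, 9.02 and 8.95 on Het arrays 1 to 4. All 7 values were above the floor, the groups did not overlap, and within each group the samples lay close together, at 7.27 ± 0.16 and 9.09 ± 0.21 (SD, n = 3 and 4). The level was 3.53-fold lower in KO cells. Leaving out any 1 array kept the difference between -1.90 and -1.72. It was -1.90 without KO replicate 1. The part of other cell types in this difference was not tested.

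Other Cyp4f genes, which encode related P450 enzymes, did not pass: Cyp4f13 differed by 0.03 ± 0.19 and Cyp4f37 by 0.36 ± 0.13 (SE; limma adjusted p = 0.957 and 0.147). Ephx1, an epoxide hydrolase, differed by -0.24 ± 0.10 (limma adjusted p = 0.22). Of 21 further genes of breakdown and conversion, 9 were in the fit, with 0 calls, and 11 lay below the floor on all arrays. The transporters Abcc4, which exports prostaglandins (-0.42 ± 0.17), Abcc1, which exports leukotriene C4 (0.07 ± 0.15), and Slco2a1, a prostaglandin importer (-0.09 ± 0.16), did not pass either.

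**Figure D4:**
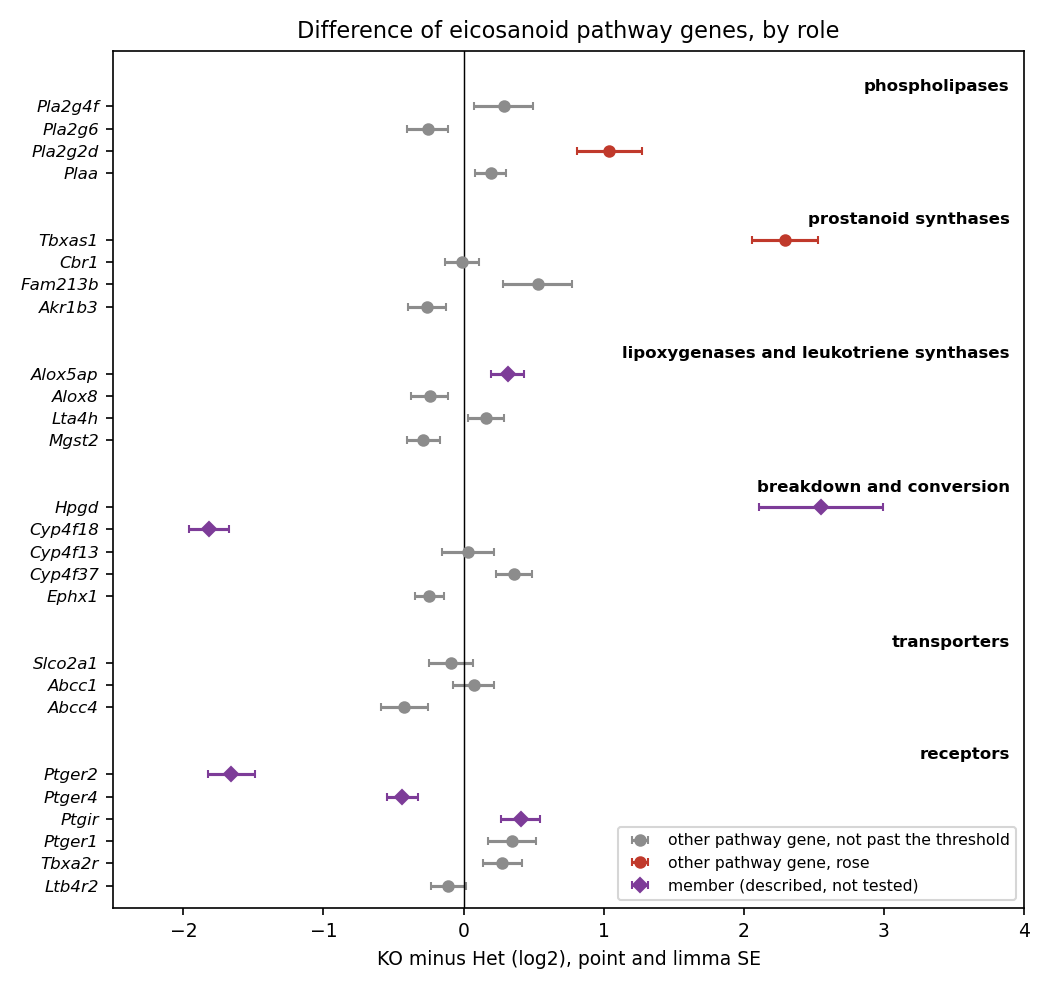
KO minus Het difference (log2, point and limma SE) of 6 eicosanoid genes (diamonds) and of other pathway genes (circles), grouped by role. Hpgd at 2.55, Cyp4f18 at -1.82 and Ptger2 at -1.66 stand apart from their groups' other genes, and among the circles Tbxas1 and Pla2g2d passed the threshold. The point of Tbxas1 is a difference from Het arrays that were all below the floor, so its size is known only as at least 2.73-fold.

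Ptger2 (probe set TC1400000477.mm.2) read 8.68, 7.92 and 8.398 on KO arrays 1 to 3, and 9.90, 9.9999, 10.14 and 9.92 on Het arrays 1 to 4. The Het samples were nearly alike and each lay above all KO samples, which were 3.16-fold lower on average. Without any 1 array the difference was -1.83 (without KO replicate 1) to -1.45. Ptger4 (probe set TC1500001155.mm.2), the gene for EP4, read 9.09, 9.04 and 8.95 on KO arrays 1 to 3, and 9.60, 9.38, 9.47 and 9.42 on Het arrays 1 to 4. The groups did not overlap but lay close, at -0.44 ± 0.11 (SE), or 1.35-fold lower. This call did not hold without any 1 of the 7 arrays, where the difference was -0.47 to -0.39, nor once array medians had been made equal (-0.38) or with no filter on dim genes. Whether the 2 receptor genes differed by unlike amounts was not tested.

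Ptgir encodes the prostacyclin receptor, which like EP2 and EP4 raises cyclic AMP. It read 6.58, 6.21 and 6.24 on KO arrays 1 to 3, and 6.09, 5.97, 5.99 and 5.70 on Het arrays 1 to 4, where Het sample 4 was below the floor. KO values lay above Het values by a narrow margin, and the difference of 0.41 ± 0.14 (SE) did not pass the threshold of the fit. Ltb4r1, the gene for BLT1, read 4.10, 4.54 and 4.51 on KO arrays 1 to 3, and 4.65, 4.78, 5.03 and 4.505 on Het arrays 1 to 4, overlapping and below the floor. Of 12 other receptor genes, 4 were in the fit with 0 calls and 7 lay below the floor on all arrays. The last, Ptger3, also for prostaglandin E2, was above the floor on KO arrays 1 and 2 only and not in the fit. It read 5.65, 6.17 and 5.07 on KO arrays 1 to 3, and 4.66, 4.75, 4.64 and 4.95 on Het arrays 1 to 4. Groups did not overlap in Ptger3 (KO higher) or in Cysltr2 (KO lower, all arrays below the floor), as in 19.5% of all genes in the fit. Ptger1, another prostaglandin E2 receptor gene (0.35 ± 0.17), the thromboxane receptor Tbxa2r (0.28 ± 0.14) and Ltb4r2, the other leukotriene B4 receptor (-0.11 ± 0.13), did not pass (limma adjusted p = 0.3, 0.3 and 0.703).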

How the data were processed

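Array signals of 7 sorted Treg samples were used. The deposited log2 values are RMA signals from Affymetrix Expression Console 1.1 (credited to the submitters' processing notes). RMA corrects background, equalises distributions and summarises probes, so a shift of most genes one way would be reduced. Per the labels' protocols, 1 to 20 ng of total RNA was amplified and biotin-labelled with NuGEN kits. No genome build, batch or scan date is given in the sources used here.

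A gene was read from its brightest probe set on average, and 22203 of 28846 probe sets carried 1 symbol. Genes above the floor on at least 3 arrays were fitted with limma 3.58.1 in R 4.3.3 (lmFit, eBayes), with Benjamini-Hochberg adjustment over all 13083 and a threshold of 0.05. The fit was tested on simulated data. Groups came from the labelled genotype, and replicate numbers follow accession order and only name samples. Separate animals per sample are not stated, so a p-value reflects only sample-to-sample spread, which may be technical.

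The members, pathway and marker lists were chosen with earlier results of these data known. Named were all members, pathway genes past the threshold, the 3 brightest others of each role, Pggt1b, Foxp3, and the 2 fitted markers with the largest difference in each list. Cd8b1, Cd3d, Cd3g, Lck, Ctsb, Ptger3, markers below the floor on some or all arrays, and pathway genes called only under alternatives were named after their values had been seen. Protein features were not analysed here.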

Additional observations from a re-analysis of the deposited data

Results flagged for a closer look

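Among 30 genes checked in the 4 Het samples, 1 sample stood far from the others. Alox5 read 4.96 in Het replicate 3 and 5.38 to 5.41 in the other Het samples, so the gap was 0.916 of the group's range, above Dixon's 95% critical value for 4 samples. All 4 values are below the floor. Chance alone gives such a gap in about 1 in 20 groups.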

How the results depend on the processing

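Cyp4f18, Ptger2 and Hpgd kept their direction and their side of the threshold under the 15 alternatives listed at the outset, which is no independent support, since they were chosen on this contrast. With no filter on dim genes Ptgs1 also passed, giving 2 members higher, and Cysltr2, below the floor on all arrays, made 1 pathway gene lower. With array weights 5 pathway genes rose (Cyp4f16, Cyp4f37 and Ggt5 beside the 2), and 547 of all genes rose and 697 fell. Leaving out 1 array gave 1 member higher and 2 lower, 0 to 2 pathway genes higher, 180 to 293 of all genes higher and 234 to 459 lower. With the 7-array gene set kept, an alternative chosen after seeing the data, leaving out a KO array gave 1 to 2 pathway genes higher, 209 to 241 of all genes higher, and 300, 247 and 271 lower without KO replicate 1, 2 and 3. Without a KO array Tbxas1 left the fit through the filter, and it passed with the 7-array gene set kept. The cause of the other changes was not tested. Genes near the floor have compressed differences. No paired analysis was possible because the labels give no replicate numbers.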
